A study of Mus musculus with 36 samples.

Results

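TEC genes are a class of mouse gene models that Ensembl lists as still awaiting experimental proof. Most are single blocks of transcribed sequence without introns, built by manual annotators from cDNA or EST evidence, and many lie inside an intron of a known gene or just past its end. Such a model can stand for an unspliced non-coding RNA of its own, for a piece of the unspliced transcript of the gene around it, or for transcription that runs past a gene's end, and few have a described function in muscle. Here the TEC class was followed through electrical pulse stimulation (EPS) and knockdown of the lncRNA Tug1. The members were all genes of biotype TEC with a level of at least 1 CPM (counts scaled to the size of the library) in at least 12 of 36 libraries. This rule kept 181 of the 3238 TEC rows, and the members made up 181 of the 13995 genes tested.

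The 36 libraries came from C2C12 cells, an established mouse myoblast line, differentiated into myotubes, and fell into 6 groups of 6. On day 3 of differentiation all wells received an antisense locked nucleic acid (LNA), either the Tug1 knockdown (Tug1-KD) or the Negative control LNA, and all were harvested on day 4. Wells of the Rest groups held electrodes that were not connected, the EPS 0h groups were harvested directly after 3 h of stimulation, and the EPS 3h groups after 3 h more of recovery. All 6 groups thus carried an LNA and its transfection, the cells were 1 established line, and no Rest group matched the extra 3 h of the EPS 3h groups, so recovery and time in culture cannot be told apart. The study describes 2 independent experiments with 3 wells per condition. The labels do not give the experiment of a library, so the sets of replicates 1 to 3 and 4 to 6 used below are a split by number only. Since these are bulk RNA values, fewer cells of a type and less RNA per cell cannot be told apart.

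Depth ran from 17005079 to 24181167 counts per library. The targeted Tug1 had a median of 47.7 CPM in Rest control libraries and 25.4 in Rest Tug1-KD libraries (log2 fold change -0.83 ± 0.17 SE, adjusted p = 9.2e-04), and was lower by knockdown at EPS 0h (-0.57 ± 0.17, adjusted p = 0.018) and EPS 3h (-0.51 ± 0.17, adjusted p = 0.041). The 9 myotube markers were all measured, at 11969 to 18582 CPM summed, and none of the 3 adipocyte markers reached the level filter. The summed level over all libraries was 106 to 191 CPM for 5 myoblast markers, 313 to 656 for 4 fibroblast markers, 1.55 to 5.43 for 3 macrophage markers, 0.214 to 3.40 for 2 endothelial markers and at most 2.62 for the adipocyte markers. Some of these lists moved with EPS, as given beside the EPS results. EPS 3h replicate 3 of both LNA conditions lay apart from replicates 1 and 2 on the second principal component (control, -31.0 against 8.15 and 8.23). Values without these libraries are given where they changed a result.

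Of the 181 members, 179 had a model in a later annotation of the same genome build (GRCm39), and 177 of these were a single exon. Their length ran from 427 to 30942 bases with a median of 2409. By position, 74 lay in an intron of a gene of the same strand, 47 overlapped a gene of the opposite strand only, and 21 overlapped no gene outside the TEC class on either strand and began within 10 kb past the end of a gene of the same strand. A further 20 overlapped an exon of the same strand, and 17 lay elsewhere between genes. Intronic models made up 40.9% of the members and 51.1% of all TEC rows. Counting genes of the same strand that overlap a member or end within 10 kb before it, only Aopep and 2610316D01Rik held 2 members each. Some members also shared a locus across strands, such as Gm43857, Gm43858 and Gm43859 at Usp33, and Gm42928 and Gm42929 at Cnn3.

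The ends of the members' models differed in sequence from those of other genes. Messenger RNAs are cut and tailed shortly after the signal AATAAA or its variant ATTAAA, whereas oligo-dT primers and beads can also bind a run of A inside a transcript. One of these signals stood on the sense strand in the last 50 bases of 71 of 179 member models (39.7%), against 71.0% of all other tested genes and 61.0% of tested lncRNAs. A genomic run of at least 6 A within the 20 bases past the end was found in 41 of 179 (22.9%), against 4.61% of other genes and 3.54% of lncRNAs. Among intronic members 31.1% had a signal and 29.7% a run of A. A match describes letters only, and the libraries were selected for poly-A.

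The next lines show the last 50 bases of a model and the 20 bases past it, read 5′ to 3′ from GRCm39, for members with large EPS or knockdown changes whose ends met no exon of another gene. Capitals mark a signal in the last 50 bases or a run of at least 6 A past the end. The first 4 ends have a run of A, and all 4 models lie in introns.
Gm37183 (chr14:65073284-65073353, minus strand): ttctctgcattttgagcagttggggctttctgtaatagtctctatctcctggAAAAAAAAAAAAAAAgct
Gm43921 (chr6:4507829-4507898, plus strand): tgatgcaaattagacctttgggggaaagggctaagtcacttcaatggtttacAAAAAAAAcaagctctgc
Gm48978 (chr16:94018860-94018929, minus strand): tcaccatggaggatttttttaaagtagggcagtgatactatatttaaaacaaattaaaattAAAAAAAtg
Gm37014 (chr1:135987122-135987191, plus strand): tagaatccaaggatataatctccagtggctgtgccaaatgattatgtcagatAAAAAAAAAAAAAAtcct
The next 4 ends have a signal.
Gm10388 (chr6:149185316-149185385, minus strand): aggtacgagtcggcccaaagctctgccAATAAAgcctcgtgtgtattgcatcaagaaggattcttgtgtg
Gm45199 (chr7:92357438-92357507, plus strand): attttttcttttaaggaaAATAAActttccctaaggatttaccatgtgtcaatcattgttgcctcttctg
Gm36948 (chr9:72351239-72351308, plus strand): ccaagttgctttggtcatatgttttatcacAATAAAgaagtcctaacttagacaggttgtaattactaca
Gm37819 (chr3:49092927-49092996, plus strand): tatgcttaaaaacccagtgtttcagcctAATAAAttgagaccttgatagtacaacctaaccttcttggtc
The last 3 have neither in these windows, although AATAAA occurs past the end of the Gm48565 model, where signals were not searched.
Gm48565 (chr9:40733920-40733989, plus strand): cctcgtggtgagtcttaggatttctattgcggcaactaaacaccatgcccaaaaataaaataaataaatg
Gm37150 (chr9:72294375-72294444, plus strand): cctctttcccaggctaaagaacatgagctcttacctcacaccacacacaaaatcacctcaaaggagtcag
Gm45819 (chr7:109720898-109720967, plus strand): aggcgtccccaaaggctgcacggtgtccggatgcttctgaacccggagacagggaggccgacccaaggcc

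Around the starts of the models (250 bases before to 50 after, both strands), a heat shock element occurred in 2 of 179 members, Gm43029 and Gm44550 (1.12%, against 0.559% of other genes), and the full cAMP response element in Gm34220 (0.559% against 2.59%). The AP-1 motif TGANTCA, bound by Fos and Jun, occurred in 16 members (8.94% against 6.20%).

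TEC genes were expressed at a low level. The mean over all libraries ran from 0.757 to 27.4 CPM with a median of 1.47, and 150 of 181 members were below 3 CPM. At the median depth 3 counts correspond to 0.154 CPM. Only 20 members reached 1 CPM in all 36 libraries. At the edge of the rule, 10 members reached it in exactly 12 libraries (mean 0.757 to 0.987 CPM), and 11 other TEC genes in 11 (0.657 to 1.03 CPM).

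The highest level belonged to Gm43737 (mean 27.4 CPM, or 10.0 CPM per kb of model), which overlaps a gene of the opposite strand only. In control libraries its lowest, median and highest values were 12.5, 13.4 and 15.2 CPM at Rest, 30.4, 32.7 and 36.1 at EPS 0h, followed by 22.2, 35.4 and 38.7 at EPS 3h. No EPS library of either LNA fell into the Rest range, and the log2 fold change was 1.27 ± 0.12 (SE) at EPS 0h (adjusted p = 2.3e-10). Of the next most abundant members, Gm49759 (23.3 CPM) fell after EPS, as described below. Gm44250 (18.4 CPM), 272 bases past the end of Pon3, a paraoxonase gene, differed little, with medians of 20.8 CPM at Rest, 16.4 at EPS 0h and 16.6 at EPS 3h and adjusted p-values of 0.24 and 0.088. Gm42547 (9.22 CPM), 24283 bases past the zinc finger gene Zfp800, rose by 1.45 ± 0.23 at EPS 0h and by 0.71 ± 0.23 at EPS 3h, where Zfp800 rose by 0.98 and 1.06. Gm37893 (7.90 CPM), in an intron of Trmt1l, rose by 1.57 ± 0.36 and 1.14 ± 0.36.

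The libraries gave few counts to the class as a whole, and the share rose with EPS. In Rest control libraries the 181 members took 0.0249% to 0.0385% of counts (median 0.0336%). At EPS 0h the share was 0.0355% to 0.0523% (median 0.0434%), and at EPS 3h 0.0295% to 0.0538% (median 0.0468%), so that both ranges met that of Rest. With Tug1-KD the medians were 0.0338%, 0.0536% and 0.0514%. The lowest EPS 0h Tug1-KD library, at 0.0361%, lay above the highest Rest Tug1-KD library, at 0.0356%. Without the 6 most abundant members the medians in control were 0.0242%, 0.0339% and 0.0375%, so the order did not rest on those 6. Since the level rule also let in genes that reached 1 CPM only after EPS, this rise is in part built into the choice of members, and it is given without a test.

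**Figure D1:**
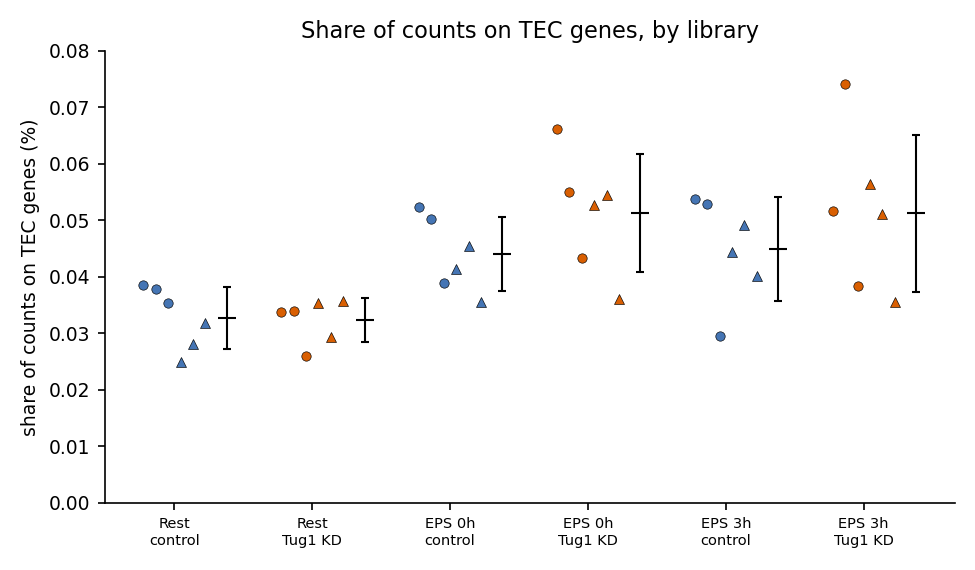
Share of each library's counts that fell on the 181 TEC genes, in percent, for the 6 groups (circles, replicates 1 to 3; triangles, replicates 4 to 6; bars, mean and SD, n = 6). The Rest libraries sit between 0.0249% and 0.0385% and the EPS medians of 0.0434% to 0.0536% lie above them.

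The first question was how the myotubes' TEC genes responded to contraction-like stimulation in the presence of the control LNA. At EPS 0h, 95 of 181 members were higher and 10 lower than at Rest, where 20.5% of all genes tested were called higher and 18.4% lower (edgeR quasi-likelihood test, adjusted p under 0.05). The members' median log2 fold change was 0.84, against -0.03 for all genes. At EPS 3h, 95 were higher and 25 lower (26.1% and 25.9% of all genes), with a median of 0.83. All 95 and 95 higher calls, and all 10 and 25 lower calls, kept their sign in replicates 1 to 3 and in replicates 4 to 6 taken alone. Both sets are parts of the libraries that gave the calls, so this agreement is largely built in and is not a replication. The values of all 6 EPS libraries lay above all 6 Rest libraries for 57 members at EPS 0h (11.8% of all genes) and for 56 at EPS 3h (15.2%), and below them for 5 and 11 (10.1% and 13.8%). Under a stricter call (adjusted p under 0.01 and more than 1 on the log2 scale) 74 members were higher and 5 lower at EPS 0h in control (6.23% and 2.2% of all genes), and 82 higher and 15 lower at EPS 3h (9.62% and 4.72%). For comparison, 28.2% of 824 lncRNAs and 25.1% of 2337 other genes below 3 CPM were higher at EPS 0h. These shares were 38.3% and 35.2% at EPS 3h. Marker lists of other cell types moved in the same control libraries. The summed fibroblast markers were at 513 to 611 CPM at Rest, 338 to 508 at EPS 0h and 359 to 491 at EPS 3h. The summed myoblast markers were at 114 to 155 CPM at Rest, 153 to 191 at EPS 0h and 106 to 161 at EPS 3h, and the endothelial markers at 0.422 to 0.975, 0.605 to 1.61 and 1.47 to 3.11 CPM. Their part in the TEC changes was not tested.

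These counts depend on which TEC genes the level rule admits. Of the 181, 96 reached 1 CPM in at least 6 of the 12 Rest libraries, and 85 did not, 58 of them in no Rest library. Members of the second kind passed mainly through EPS libraries, and the 58 through EPS libraries only. Of the 85, 70 were higher at EPS 0h and 72 at EPS 3h. Of the 96, 25 were higher and 10 lower at EPS 0h (26.0% and 10.4%, median log2 fold change -0.03), and 23 higher and 24 lower at EPS 3h (24.0% and 25.0%, median -0.15). These shares of higher calls are near the background of 20.5% and 26.1%. The share of lower calls was below the background of 18.4% at EPS 0h and near that of 25.9% at EPS 3h. The 96 were chosen on levels in Rest libraries, which are also the baseline here, and the background genes were not. That choice can lower their fold changes, so the comparison does not settle how TEC genes responded. Under a rule on the mean over all libraries (at least 1 CPM), 74 of 146 TEC genes were higher at EPS 0h (50.7%, against 20.1% of all genes) and 73 of 146 at EPS 3h (26.0% of all genes). With no filter, 233 of 2539 were higher at EPS 0h (9.18% against 9.44% of all genes) and 438 at EPS 3h (17.3% against 17.4%). Without a level rule the share of higher TEC genes was thus close to the share of all genes. Lower calls numbered 58 of 2539 at EPS 0h (6.20% of all genes) and 112 at EPS 3h (11.5%). The lower share of TEC genes was thus below that of all genes at both times. Only 181 of the 2539 met the level rule, so most held low counts, and like shares of calls do not show a like response.

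**Figure D2:**
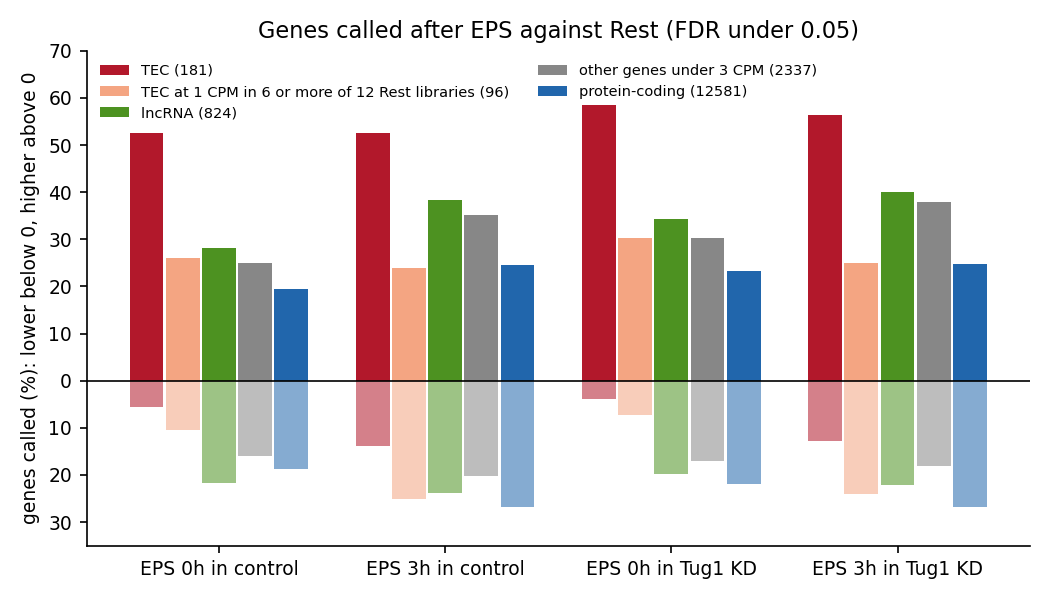
Percent of genes called higher (above 0) or lower (below 0, paler) than Rest at EPS 0h and EPS 3h in each LNA condition, for 5 gene sets with their sizes in parentheses. The 181 TEC genes reach 52.5% higher in both control comparisons, while the 96 well measured at Rest stand at 26.0% and 24.0%.

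Among the members that rose, Gm48565 (ENSMUSG00000110982, chr9:40732265-40733969) had the largest change. It starts 1226 bases past the end of Hspa8, the gene of a constitutive heat shock chaperone, on the same strand. In Rest control libraries it had 0 to 2 counts, 3 in all, and in EPS 0h control libraries the lowest, median and highest values were 2.79, 8.88 and 16.5 CPM, followed by 2.78, 13.7 and 16.1 CPM at EPS 3h. The ranges were far apart. The ratio of summed counts, scaled for library size, was 386 at EPS 0h (95% exact interval 132 to 1874, counting error only) and 498 at EPS 3h (170 to 2416), with adjusted p-values of 9.4e-10 and 7.6e-11. With Tug1-KD the medians were 0.0225, 11.8 and 14.4 CPM. Hspa8 rose by only 0.45 ± 0.10 on the log2 scale at EPS 0h and 0.84 ± 0.10 at EPS 3h, from a mean of 3113 CPM at Rest.

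Over the 36 libraries the genes whose log2 CPM was most like that of Gm48565 were the pseudogene Gm19178 (r = 0.979), Papolb, a poly(A) polymerase gene (r = 0.976), and a second member, Gm37150 (r = 0.974). These correlations describe libraries that share the Rest and EPS states. Gm37150 (chr9:72291671-72294424) lies within the lncRNA gene Gm27230. It had 5 counts in all at Rest in control, and medians of 2.22 CPM at EPS 0h and 3.56 at EPS 3h, with lowest values of 0.875 and 0.794. Its ratio of summed counts was 62.4 (26.4 to 194) at EPS 0h and 82.7 (35.1 to 256) at EPS 3h. Gm27230 rose with it, with ratios of 24.1 (11.4 to 61.0) and 24.2 (11.5 to 61.3).

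A second TEC of the same neighbourhood had a smaller rise at EPS 0h than at EPS 3h, a difference that was not tested. Gm36948 (chr9:72348042-72351288) starts 53617 bases past Gm37150 and lies in an intron of Mns1, which codes for a structural protein of cilia and of meiotic nuclei. Its control medians were 0.0465 CPM at Rest, 0.542 at EPS 0h and 2.28 at EPS 3h, but 1 EPS 3h library held 1 count (0.0567 CPM) and overlapped the Rest range. The ratio was 11.9 (5.51 to 30.6) at EPS 0h and 41.4 (19.8 to 104) at EPS 3h (adjusted p = 0.0071 and 9.9e-06). Mns1 rose from a mean of 7.11 CPM to 27.9 and 61.4 (log2 fold change 1.97 ± 0.15 and 3.11 ± 0.15).

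Other members rose in control inside genes that did not pass the test there or that fell. Gm37183 (chr14:65073304-65076708) lies in an intron of Hmbox1, which encodes a homeobox protein that binds telomeric DNA. In control libraries its lowest, median and highest values were 0.0469, 0.128 and 0.415 CPM at Rest, 1.07, 2.20 and 3.49 at EPS 0h, followed by 2.39, 3.22 and 6.52 at EPS 3h. Groups did not overlap, and the log2 fold changes were 3.76 ± 0.40 (adjusted p = 2.8e-09) and 4.44 ± 0.39 (adjusted p = 1.2e-11). Hmbox1 stood at means of 31.2, 33.8 and 37.3 CPM (log2 fold change 0.12, adjusted p = 0.51, and 0.26, adjusted p = 0.10).

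Gm43921 (chr6:4506087-4507878) lies near the start of Col1a2, the gene of a type I collagen chain. It went from 0.150, 0.312 and 0.691 CPM at Rest to 1.75, 4.07 and 4.76 at EPS 0h, followed by 0.794, 2.84 and 4.2 at EPS 3h, a log2 change of 3.35 ± 0.39 and 2.93 ± 0.39 with no overlap of groups. Col1a2 was at means of 1238, 1226 and 1168 CPM, with log2 fold changes of -0.01 and -0.08 (adjusted p = 0.94 and 0.59).

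Gm48978 (chr16:94018880-94023871) lies in Hlcs, the gene of the enzyme that attaches biotin to carboxylases, and was named for its rise at EPS 3h. It had 12 counts in all at Rest in control, lowest, median and highest values of 0.559, 0.828 and 1.35 CPM at EPS 0h, followed by 2.48, 3.25 and 6.85 at EPS 3h. Each step was free of overlap. The ratio was 9.35 (5.13 to 18.7) at EPS 0h and 41.6 (23.6 to 81.1) at EPS 3h. Hlcs itself fell by 0.47 ± 0.14 on the log2 scale at EPS 0h (adjusted p = 0.0074) and differed by -0.24 at EPS 3h (adjusted p = 0.14).

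Of the members away from other genes, Gm10388 (chr6:149185336-149188271) had a larger rise at EPS 0h than at EPS 3h, although the 2 times were not tested against each other. Its control values were 0.0856, 0.247 and 0.626 CPM at Rest, 1.37, 3.14 and 7.95 at EPS 0h, followed by 0.510, 0.919 and 1.83 at EPS 3h. The EPS 3h range met that of Rest, and the log2 fold change was 3.69 ± 0.47 at EPS 0h (adjusted p = 1.2e-07) and 1.85 ± 0.51 at EPS 3h (adjusted p = 0.0025). Gm45199 (chr7:92355981-92357487) showed the opposite order, with 9 counts in all at Rest and medians of 1.53 CPM at EPS 0h and 2.77 at EPS 3h. Its ratio was 20.9 (10.8 to 46.5) and then 44.8 (23.4 to 98.9).

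**Figure D3:**
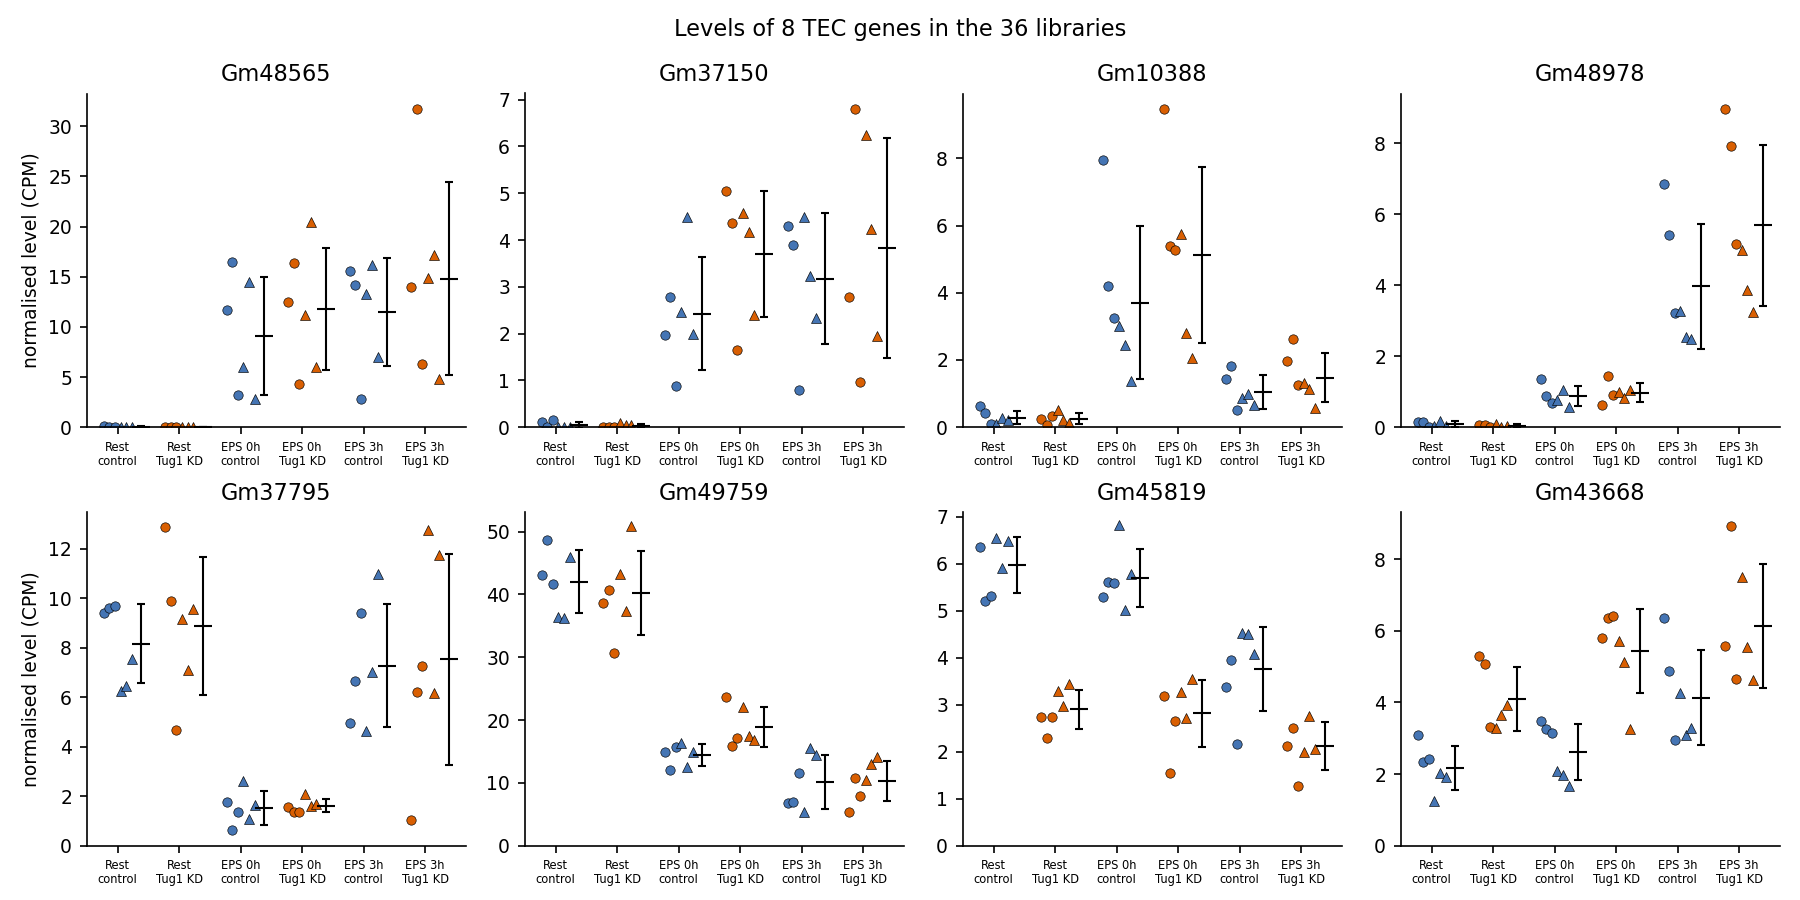
Normalised level (CPM) of 8 TEC genes in all 36 libraries, by group (circles, replicates 1 to 3; triangles, replicates 4 to 6; bars, mean and SD, n = 6). Gm48565, Gm37150 and Gm48978 are near 0 at Rest, Gm37795 has its lowest medians at EPS 0h (1.49 and 1.58 CPM), and Gm45819 is lower with Tug1-KD in each state.

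All 10 members that fell at EPS 0h, and 24 of the 25 at EPS 3h, were among the 96 well measured at Rest. The level rule largely fixes this, since the other 85 passed mainly through EPS libraries and had little room to fall. Gm37795 (chr4:150152996-150155454) begins 16 bases before the end of Mir34a, the gene of a microRNA induced by p53, and extends past it. In control libraries it had 6.25, 8.47 and 9.68 CPM at Rest, 0.635, 1.49 and 2.63 at EPS 0h, followed by 4.62, 6.84 and 11.0 at EPS 3h. The EPS 0h libraries lay apart from both other groups (log2 fold change -2.41 ± 0.35, adjusted p = 9.0e-07), and EPS 3h libraries overlapped Rest (-0.16, adjusted p = 0.68). Tug1-KD libraries followed the same course, with medians of 9.36, 1.58 and 6.74 CPM. The Mir34a row itself held 0 or 1 count in all control libraries together at each state.

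Gm49759 (chr9:59580097-59583983) overlaps an exon of Pkm, the pyruvate kinase gene of muscle, so its reads may be shared with it. It fell from 36.2, 42.4 and 48.6 CPM at Rest to 12.1, 14.9 and 16.4 at EPS 0h, followed by 5.39, 9.23 and 15.5 at EPS 3h. No EPS library reached the Rest range, and the log2 fold changes were -1.54 ± 0.20 (adjusted p = 1.3e-07) and -2.05 ± 0.20 (adjusted p = 1.4e-10). Pkm was at means of 1655 CPM at Rest and 1538 and 1534 after EPS, with adjusted p-values of 0.63 and 0.59.

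The other falls at EPS 0h were smaller. Gm37352, between genes on chromosome 8, changed by -1.15 ± 0.23 (adjusted p = 1.7e-04), and Gm49284, in an intron of Atpsckmt, by -0.89 ± 0.25 (adjusted p = 0.0048), where Atpsckmt fell by 0.26. Gm37435, opposite Slc9a4, changed by -1.04 ± 0.36 (adjusted p = 0.022) with overlapping groups, and in replicates 4 to 6 alone by -0.47. At EPS 3h the largest fall was that of Gm43185 (chr3:151955666-151958440), which overlaps an exon of Nexn, the gene of an actin-binding protein of the Z-disc. It went from 2.11, 3.88 and 7.57 CPM at Rest to 0.113, 0.882 and 1.16 at EPS 3h (-2.45 ± 0.39, adjusted p = 2.8e-06), whereas Nexn changed by 0.23 (adjusted p = 0.44).

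A further 3 falls at EPS 3h were smaller than that of Gm43185. The unnamed ENSMUSG00000118029 at Neurl1a, a ubiquitin ligase gene, changed by -1.65 ± 0.34 and Gm42432, in an intron of the microtubule-associated protein gene Map4, by -1.50 ± 0.32. Gm44950, opposite 5430400D12Rik and 277 bases past the end of Arpin, changed by -1.29 ± 0.22. Map4 fell by 0.33 and Arpin, an inhibitor of Arp2/3, by 0.46.

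In control myotubes 81 members were higher at both EPS 0h and EPS 3h, 14 at EPS 0h alone and 14 at EPS 3h alone. For falls the numbers were 8, 2 and 17, the 2 being Gm37795 and Gm37435. No member was called in opposite directions at the 2 times. With Tug1-KD 93 were higher at both times, 13 at EPS 0h alone and 9 at EPS 3h alone. The 93 were 87.7% of the members higher at EPS 0h and 91.2% of those higher at EPS 3h, against 82.5% and 76.9% for all genes called. The level rule, which admits members high after EPS, bears on the members' shares here and in control. Of all genes higher at EPS 0h in control, 86.4% were also higher at EPS 3h, and of those higher at EPS 3h, 68.0% at EPS 0h, where the members gave 85.3% and 85.3%. For falls these shares were 84.8% and 60.1% of all genes called, and 80.0% and 32.0% of the members called. The 2 comparisons share the Rest libraries, and a call at a single time is not a test of the difference between times.

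The intronic members were set beside the genes that contain them. For 72 members the host was itself tested, and Aopep is counted once for each of its 2 members. At EPS 0h in control, 46 of 74 intronic members were higher (background 20.5%), and the level rule fixes part of this count. Of the 43 under 1 CPM in most Rest libraries, 34 were higher. Of the 31 that reached 1 CPM in at least 6 of 12 Rest libraries, 12 were higher and 3 lower, with a median log2 fold change of 0.02. Over the 72 pairs the hosts had a median of 0.20, with 33 higher and 12 lower. For 45 higher members with a tested host, the host was higher for 28, not called for 13 and lower for 4. The 4, named after their values were seen, were Gm48978 in Hlcs, Gm42979 in Sfswap, Gm45745 in Plekha2 and Gm47585 in Aopep. For the 30 pairs whose member was well measured at Rest, the member's change lay above its host's in 14, with medians of -0.04 for members and 0.12 for hosts, and at EPS 3h in 12, with medians of -0.31 and 0.08. For the other 42 pairs, whose members passed the level rule mainly through EPS libraries, the member's change lay above in 41 and 39. Gm37893 in Trmt1l, a tRNA methyltransferase gene, changed by 1.57 against 1.83 for its host. Across the 72 pairs the changes had r = 0.58, a description over pairs that share libraries and possibly reads.

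At EPS 3h in control 45 intronic members were higher and 8 lower, where 10 of the 31 well measured at Rest were higher and 7 lower. The counts of the other position classes depend on the level rule in the same way, and the background was 20.5% at EPS 0h, then 26.1% at EPS 3h. For the 47 members opposite another gene only, 20 were higher at each time, of which 3 at EPS 0h and 4 at EPS 3h were among the 29 well measured at Rest. For 18 of those 20 the opposite gene was tested at EPS 0h, and it was higher for 11, not called for 6 and lower for 1. Among the 21 members that began past a gene's end and overlapped no gene outside the TEC class, 9 were higher at EPS 0h, 3 of them among the 14 well measured at Rest. The 17 intergenic members gave 12 higher calls at EPS 0h and 13 at EPS 3h, of which 5 each were among the 9 well measured at Rest. The 20 members overlapping an exon gave 7 at each time, 2 each among the 13 well measured at Rest.

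**Figure D4:**
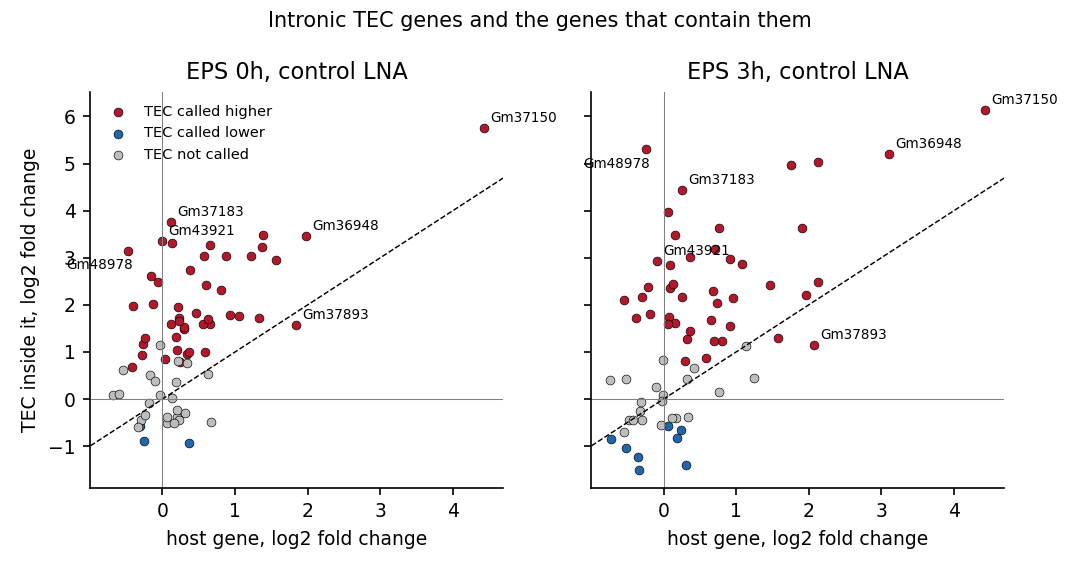
Log2 fold change against Rest in control myotubes of 72 intronic TEC genes (y axis) and of the genes that contain them (x axis), at EPS 0h and EPS 3h, with the line of equal change dashed. At EPS 0h 55 of the 72 points lie above the line, among them 14 of the 30 whose member was well measured at Rest and 41 of the other 42.

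Because intronic reads can come from nuclear RNA, nuclear-retained lncRNAs are given beside these counts. Of 6 listed, 3 were tested, and the summed level of the list was 1391 to 1970 CPM in Rest control libraries and 1132 to 2189 at EPS 0h. At EPS 0h in control Kcnq1ot1 rose by 1.08 on the log2 scale (adjusted p = 3.3e-04), Neat1 fell by 0.84 (adjusted p = 0.0024), and Malat1 differed by 0.28 (adjusted p = 0.29). Their part in the TEC changes was not tested. The counting mode and strand setting are not given in the sources used here, so reads of a TEC gene, of an unspliced host and of an antisense partner cannot be told apart with certainty.

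The second question was whether Tug1 knockdown altered these genes. Few passed the test at Rest. Gm43668 was higher, and Gm45819 and Gm47694 were lower, which is 1 of 181 higher and 2 lower against 5.54% and 4.47% of all genes tested. The median log2 fold change was -0.03, made up of -0.33 from replicates 1 to 3 and 0.32 from the other 3 replicates. At EPS 0h 8 members were higher and 1 lower (background 8.25% and 6.07%), with a median of 0.26, and at EPS 3h 7 were higher and 1 lower (6.38% and 5.11%), with a median of 0.19. In this fit without a block, each share was below that of all genes. Of 2337 other genes below 3 CPM, 2.31% were higher and 5.35% lower at Rest. These shares were 3.00% and 5.01% at EPS 0h, then 2.40% and 2.95% at EPS 3h. The members gave 0.552% and 1.10% at Rest, 4.42% and 0.552% at EPS 0h, then 3.87% and 0.552% at EPS 3h. Beside these low genes, the members' share of higher calls was thus larger after EPS and smaller at Rest. Their share of lower calls was smaller in each state. With replicate number as a block the calls were 27 higher and 2 lower at EPS 0h (14.9% and 1.10% of members, against 13.1% and 11.2% of all genes in the same fit) and 15 higher and 1 lower at EPS 3h (8.29% and 0.55%, against 10.8% and 9.75%). Without EPS 3h replicate 3 the 7 became 3.

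Gm45819 (chr7:109719197-109720947) was lower with knockdown in all 3 states. It lies opposite the lncRNA 1600010M07Rik, which was at or below a mean of 0.197 CPM in each group. Control libraries had 5.20, 6.14 and 6.55 CPM at Rest and Tug1-KD libraries 2.29, 2.85 and 3.43. At EPS 0h the values were 5.02, 5.6 and 6.82 against 1.55, 2.95 and 3.55, and at EPS 3h 2.15, 4.02 and 4.53 against 1.26, 2.10 and 2.75. The groups were apart at Rest and at EPS 0h and overlapped at EPS 3h. The log2 fold changes were -1.04 ± 0.17 (adjusted p = 4.2e-05), -1.01 ± 0.17 (adjusted p = 5.4e-05) and -0.83 ± 0.18 (adjusted p = 0.0013). In replicates 1 to 3 and 4 to 6 alone the Rest values were -1.12 and -0.97, and in replicates 1 to 3 alone the EPS 3h call was lost (-0.68). EPS also lowered it in control at 3 h (-0.66 ± 0.17, adjusted p = 0.0011).

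The genes most like Gm45819 over the 36 libraries were Ptpdc1 (r = 0.900), Tmem25 (r = 0.886) and Rcan3 (r = 0.881), given as a description. Gm43668 (chr3:34124808-34130149), by contrast, rose with Tug1-KD. It starts 5 bases past the end of Fxr1, the gene of an RNA-binding protein needed in muscle, and lies opposite Dnajc19. Control libraries had 1.24, 2.18 and 3.08 CPM at Rest and Tug1-KD libraries 3.28, 3.78 and 5.31, without overlap (log2 fold change 0.92 ± 0.23, adjusted p = 0.0053), a call lost in replicates 1 to 3 alone (0.81). At EPS 0h the medians were 2.62 and 5.76 CPM (1.06 ± 0.22, adjusted p = 8.8e-04), and at EPS 3h 3.77 and 5.56 (0.57, adjusted p = 0.087). Fxr1 moved the same way, by 0.65 ± 0.20 at Rest (adjusted p = 0.029), 0.69 ± 0.20 at EPS 0h (adjusted p = 0.015) and 0.52 at EPS 3h (adjusted p = 0.087). Dnajc19 differed by -0.06 at Rest (adjusted p = 0.88).

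Gm37819, between genes on chromosome 3 (chr3:49091912-49092976), was higher with knockdown after stimulation. At EPS 0h control libraries had 1.42, 1.94 and 2.38 CPM and Tug1-KD libraries 3.00, 4.08 and 5.28 (1.11 ± 0.22, adjusted p = 4.1e-04), and at EPS 3h 2.32, 3.06 and 3.72 against 3.87, 5.03 and 6.97 (0.77 ± 0.21, adjusted p = 0.014). Neither pair of groups overlapped. At Rest the medians were 0.650 and 0.980 CPM (adjusted p = 0.18).

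Gm37014 (chr1:135984919-135987171) lies in an intron of Cacna1s, the gene of the voltage-sensing calcium channel of skeletal muscle. It was higher with Tug1-KD at EPS 0h (medians 0.532 and 1.53 CPM, 1.56 ± 0.41, adjusted p = 0.0076) and at EPS 3h (0.763 and 2.03 CPM, 1.36 ± 0.39, adjusted p = 0.017), with overlapping groups. Cacna1s was higher with Tug1-KD in each state, by 1.34 ± 0.21 at Rest, by 1.38 after stimulation and by 1.29 after recovery. At Rest Gm37014 changed by 1.02 ± 0.51 (adjusted p = 0.25). Unlike Gm37014, which EPS raised by 1.74 ± 0.48 at 3 h in control (adjusted p = 0.0027), Cacna1s differed by 0.08 in that comparison (adjusted p = 0.77).

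The remaining knockdown calls at EPS 0h were Gm44907 (1.09 ± 0.34, adjusted p = 0.027), which begins past the end of the transcription factor gene Crebzf, and, named after their values were seen, Gm42944, Gm43682 in Septin11, Gm44171 and Gm47583 in Aopep, with log2 fold changes of 0.62 to 0.99. The call of Gm44907 was lost under limma-voom (0.98) and in replicates 1 to 3 (1.37) or 4 to 6 (0.84) alone. At EPS 3h they were Gm50010 (0.97 ± 0.32, adjusted p = 0.044) and Gm48603 (0.84 ± 0.28, adjusted p = 0.047), neither of which passed the test without EPS 3h replicate 3, with library size as scaling, without the level filter or in replicates 1 to 3 alone, and Gm42432, Gm44669 and Gm47583, with log2 fold changes of 0.85 to 1.14. Gm47694, lower at Rest (-0.69 ± 0.23, adjusted p = 0.044), had means of 1.83 and 1.13 CPM.

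The third question was whether the EPS response differed between LNA conditions. With Tug1-KD 106 members were higher and 7 lower at EPS 0h (24.4% and 21.2% of all genes), with a median of 1.18, and 102 higher and 23 lower at EPS 3h (26.2% and 25.9%), with a median of 1.04. At EPS 0h 94 members were higher in both conditions, which is 98.9% of the control calls and 88.7% of the Tug1-KD calls. At EPS 3h the shared number was 93 (97.9% and 91.2%). The level rule builds in part of this overlap. Of the 85 members under 1 CPM in most Rest libraries, 70 were higher at EPS 0h in control and 77 with Tug1-KD. At EPS 3h these numbers were 72 and 78. The matching overlap over all genes was not computed, so it is not shown to be particular to the members. The 3 members called in control alone, 6720469O03Rik at EPS 0h and 9930017N22Rik and Gm45854 at EPS 3h, were named after their values were seen. Under the stricter call 93 members were higher and 5 lower at EPS 0h with Tug1-KD (8.15% and 2.5% of all genes), and 88 higher and 9 lower at EPS 3h (11.0% and 4.49%). No member passed the test of the difference in response at either time, by edgeR, DESeq2 or limma. Of all 13995 genes, edgeR called 0 at EPS 0h and 1 at EPS 3h, so the lack of calls was not particular to the members. At an unadjusted p under 0.05 edgeR gave 8 members with a larger response under Tug1-KD at EPS 0h (1.62% of all genes) and 3 at EPS 3h (2.07%), and 0 with a smaller one (0.693% and 1.0%).

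The fold change was larger under Tug1-KD for 141 of 181 members at EPS 0h, with a median difference of 0.26 on the log2 scale, and for 131 at EPS 3h, with 0.23. The level rule also counted the EPS libraries of Tug1-KD, so it can favour members with a larger response there. Of the 96 well measured at Rest, 75 had a larger response at EPS 0h (median 0.21) and 70 at EPS 3h (0.19). Of the other 85, these numbers were 66 (0.35) and 61 (0.28). Of all 13995 genes the fold change was larger for 7345 at EPS 0h (median 0.01) and for 7003 at EPS 3h (median 0.00). For 824 lncRNAs the numbers were 538 (median 0.13) and 506 (0.10). For 2337 other genes below 3 CPM they were 1349 (0.07) and 1444 (0.10). A smaller shift in the same direction was thus present in both of these sets. The members' difference was not shared by the replicate sets. At EPS 0h replicates 1 to 3 gave a median of 0.52, whereas replicates 4 to 6 gave 0.02. At EPS 3h these were 0.53 and -0.14. Members share libraries, so these counts are not independent.

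**Figure D5:**
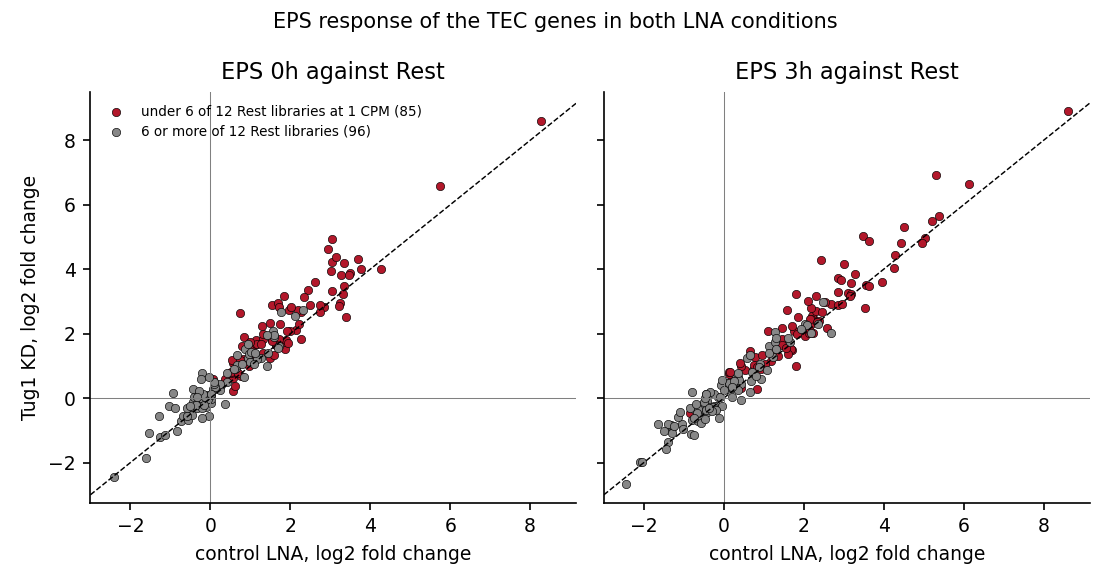
Log2 fold change against Rest of the 181 TEC genes with the control LNA (x axis) and with Tug1-KD (y axis) at EPS 0h and EPS 3h, with the line of equal change dashed. Red points mark the 85 members at 1 CPM in under 6 of 12 Rest libraries, and Gm48565 is the point at the upper right of both panels.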

How the data were processed

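The deposited table holds raw counts per gene, which the authors made from 150-base paired-end stranded poly-A libraries by trimming (fastp 0.14.1), alignment with STAR 2.5 to GRCm39 (Ensembl annotation) and summing per gene. The counter and its strand setting are not given in the sources used here. Genes with at least 1 CPM in at least 12 of 36 libraries were tested with edgeR 4.0.16 (quasi-likelihood, TMM, robust, 1 fit over all 6 groups, Benjamini-Hochberg over 13995 genes, R 4.3.3). DESeq2 1.42.0 and limma 3.58.1 were alternatives, and the scripts were tested on simulated data. Levels are TMM-scaled CPM, and ± gives a standard error. Ratios over few counts use exact binomial 95% intervals. Rows without a gene name (1492, 0.0327% of counts) were tested under their identifier. Positions and sequences came from GRCm39 with a later annotation (GENCODE M39), of which no model was found for 2 members.

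Samples were grouped by title. Each library is 1 well, so p-values measure the spread between wells, which may be technical. Same-numbered libraries deviated together (every correlation over 0.1) in 5 comparisons, the exceptions being knockdown at Rest (lowest -0.08) and EPS 3h with Tug1-KD (lowest 0.08). Named genes were the largest called rises and falls (5 each for EPS and for knockdown at Rest, 3 each for knockdown after EPS) at a mean of at least 2 CPM in the higher group, the 6 with the highest mean and the genes at the level threshold. Members, lists and tests were chosen with earlier results of these data known.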

Additional observations from a re-analysis of the deposited data

Results flagged for a closer look

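In groups of 6, a library was marked where its gap to the nearest other library, over the range of the group, passed Dixon's 95% critical value. This marked 5 of 174 groups examined for the named members, where chance gives about 1 in 20, or 8.7. In Rest control, Gm36948 stood at 0.170 CPM in replicate 6, above the other libraries. The unnamed ENSMUSG00000118029 was high in EPS 0h control replicate 1 (3.66 CPM) and in EPS 3h Tug1-KD replicate 2 (2.44 CPM). Gm37014 was high in EPS 3h Tug1-KD replicate 2 (4.35 CPM). Gm43737 was low in EPS 3h control replicate 3 (22.2 CPM), 1 of the 2 libraries that lay apart on the second principal component.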

How the results depend on the processing

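The counts below moved by over 1.5 times, and the cause was not tested except where the setting itself changes the genes or libraries counted. With no filter on low counts, which tests 2539 TEC genes, the higher and lower calls were 233 and 58 at EPS 0h in control, 438 and 112 at EPS 3h in control, 343 and 52 at EPS 0h with Tug1-KD and 532 and 100 at EPS 3h with Tug1-KD, and knockdown gave 3 higher at Rest and 13 at EPS 0h. With Tug1-KD, 13.5% of TEC genes were higher at EPS 0h and 21.0% at EPS 3h, against 11.5% and 18.9% of all genes. Of all genes, 8.19% and 13.1% were lower in these 2 comparisons. By knockdown 1.62% of all genes were higher at Rest and 2.01% at EPS 0h. Counting only members in no other gene of the same strand left, in the same order, 41 and 3, 41 and 11, 45 and 3, and 44 and 11, with 1 lower by knockdown at Rest and 5 and 3 higher at EPS 0h and EPS 3h. This setting counts fewer members, namely 47 opposite another gene only, 21 past a gene's end and 17 elsewhere between genes. A lower count there is thus not a lower share. Under the stricter call falls numbered 5, 15 and 9 at EPS 0h in control, EPS 3h in control and EPS 3h with Tug1-KD. Library size alone as scaling gave 38 falls at EPS 3h in control (and 87 rises), with a shift of -0.17 in the median of all genes.

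A block of replicates 1 to 3 against 4 to 6, a split that the labels do not give, is called the set block here. For knockdown at Rest, the replicate block gave 4 higher and 2 lower (2.21% and 1.10% of members, against 9.10% and 8.12% of all genes). The set block gave 4 higher, replicates 1 to 3 alone 0 higher and 1 lower, replicates 4 to 6 alone 10 higher and 1 lower, and limma-voom 1 lower. Shares over all genes are given here for the replicate block only. The counts of the other fits are thus not shown to be particular to the members. At EPS 0h the replicate block gave 27 higher and 2 lower (13.1% and 11.2% of all genes), the set block 18 and 2, and replicates 1 to 3 alone 4 higher. At EPS 3h the replicate block gave 15 higher (10.8% of all genes) and replicates 1 to 3 alone 1 higher and 0 lower. The fit without EPS 3h replicate 3, chosen after seeing the data, gave 3 higher. Replicates 1 to 3 alone gave 11 falls at EPS 3h with Tug1-KD. The block moved no other count of calls by over 1.5 times. Of 283 alternative values for the named members, 265 kept their call, 18 lost it and 0 changed direction. Depth limits members near 0.154 CPM, which is 3 counts.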
